A study of Saccharomyces cerevisiae with 6 samples.

Results

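The question of this comparison was which yeast genes answer mannose differently when the corepressor Cyc8 is missing. All 6 libraries of the series entered it, so it holds 6 of 6 samples, and it was described across 6146 of the 6696 reading frames in the deposited counts, those that passed a filter on low counts. Stranded libraries of total RNA, depleted of ribosomal RNA, were made from Saccharomyces cerevisiae BY4741, a laboratory strain of mating type a, and from a strain of that background carrying cyc8Δ::kanMX4. The medium held 1% yeast extract and 2% peptone, with 2% glucose or 2% mannose as the sugar, and the labels give 3 h for each library. Glucose had 2 libraries per genotype and mannose 1, which makes 4 groups. Growth in mannose was the study's condition for producing free O-glycans.

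Cyc8 forms a corepressor with Tup1 that binds no DNA itself. DNA-binding repressors such as Mig1, Nrg1 and Rox1 bring it to promoters, where it holds glucose-repressed, hypoxic, stress, cell wall and sexual differentiation genes down. Mannose enters yeast through the hexose transporters, is phosphorylated by the hexokinases, and is turned by phosphomannose isomerase into fructose 6-phosphate for glycolysis or kept as mannose phosphate for the GDP-mannose that feeds protein glycosylation.

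For each gene the interaction is the log2 change from glucose to mannose in the deletion minus the same change in wild type. It is positive where mannose raised the gene more, or lowered it less, without Cyc8. Levels are CPM, counts scaled to a common library total with TMM factors, and a level compares 1 gene between libraries, not genes with each other. Errors are standard errors of the fit. A gene was called at an adjusted p under 0.05 (edgeR's quasi-likelihood test, Benjamini-Hochberg adjustment over the 6146 genes). Each mannose group is 1 library with no replicate error of its own, so the test lends it the spread of the glucose pairs. The labels do not say whether the pairs are separate cultures, and the p-values then measure the spread between these samples, which may be technical. Counts are shares of a library, so that a lower share and less RNA per cell cannot be told apart.

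Totals ran from 26195734 counts, in the mannose library of the deletion, to 44084216. CYC8 had 7506, 9295 and 7602 counts in the wild-type libraries and 71, 124 and 180 in those of the deletion (the last in mannose). The labels of genotype were thus borne out by the targeted gene, and its own interaction of 1.66 ± 0.19 rests on those few remaining counts. TUP1, the partner, had an interaction of −0.28 ± 0.13 that was not called (adjusted p = 0.0558). LEU2, MET17 and URA3, which BY4741 lacks, had 0 counts in each library, while HIS3, of which it lacks a part, had 583 to 2151. Of the markers of mating type a, STE2 had 373 to 11483 counts, STE6 1336 to 12207 and BAR1 221 to 5913. MFA2 had 86 to 1045 counts, AGA2 110 to 600 and MFA1 50 to 173. Of those of mating type alpha MF(ALPHA)1 and MF(ALPHA)2 had at most 9 counts, STE3 6 to 140 and SAG1 426 to 732. In the deletion SAG1 had 426, 499 and 458 counts, beside 269, 371 and 221 of BAR1, so the markers do not clearly separate there. The share of counts in reading frames of the mitochondrial genome was 0.251% in the wild-type mannose library, 2.65% in the deletion mannose library and 0.557% to 0.857% in the glucose libraries.

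The interaction was called for 3943 genes, which is 64.2% of those tested. Of these, 1826 were higher (29.7% of the genes tested) and 2117 lower (34.4%). Among the calls, 892 of the higher (14.5% of the genes tested) and 768 of the lower (12.5%) were 2-fold or more. The higher share of the calls was 46.3%. It went to 33.0% with upper-quartile factors and 30.6% with library totals alone, where the median interaction over the genes tested was −0.32 and −0.36 in place of −0.08. Lower calls outnumbered higher ones under each of these scalings, by a margin that depends on the scaling. With a biological coefficient of variation (BCV) fixed at 0.2, a spread far above the fitted 5.54%, 554 genes (9.01%) were called higher and 264 (4.3%) lower, a higher share of 67.7%. Lists of genes are read against these percentages, and where a list's share called is near them its members are described with no statement about the list.

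The change from glucose to mannose was called for 2300 genes in wild type (37.4%) and 4746 in the deletion (77.2%). Each rests on 1 mannose library, so the sugar cannot be told apart from other differences of that library. At a BCV of 0.2 these numbers were 149 and 2496. In wild type 1263 of the 6146 genes rose and 1037 fell, and in the deletion 2308 rose and 2438 fell. Rises and falls within lists are read against these counts, and a share near them is not a result about the list. The SD of the log2 changes over all genes was 0.586 in wild type and 1.27 in the deletion. No library is shared by these 2 changes, and their Spearman correlation across 6146 genes was 0.417. This is a description, since genes are not independent replicates and the changes share gene length and base composition.

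The calls fell into a few patterns. Most of the higher genes, 992 of 1826, rose in the deletion with no call in wild type, and 507 rose in both genotypes. A further 218 fell in wild type and rose in the deletion. Of the 2117 lower genes 1288 fell in the deletion with no call in wild type, 429 fell in both, and 206 rose in wild type and fell in the deletion. Another 118 rose in wild type with no call in the deletion.

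**Figure D1:**
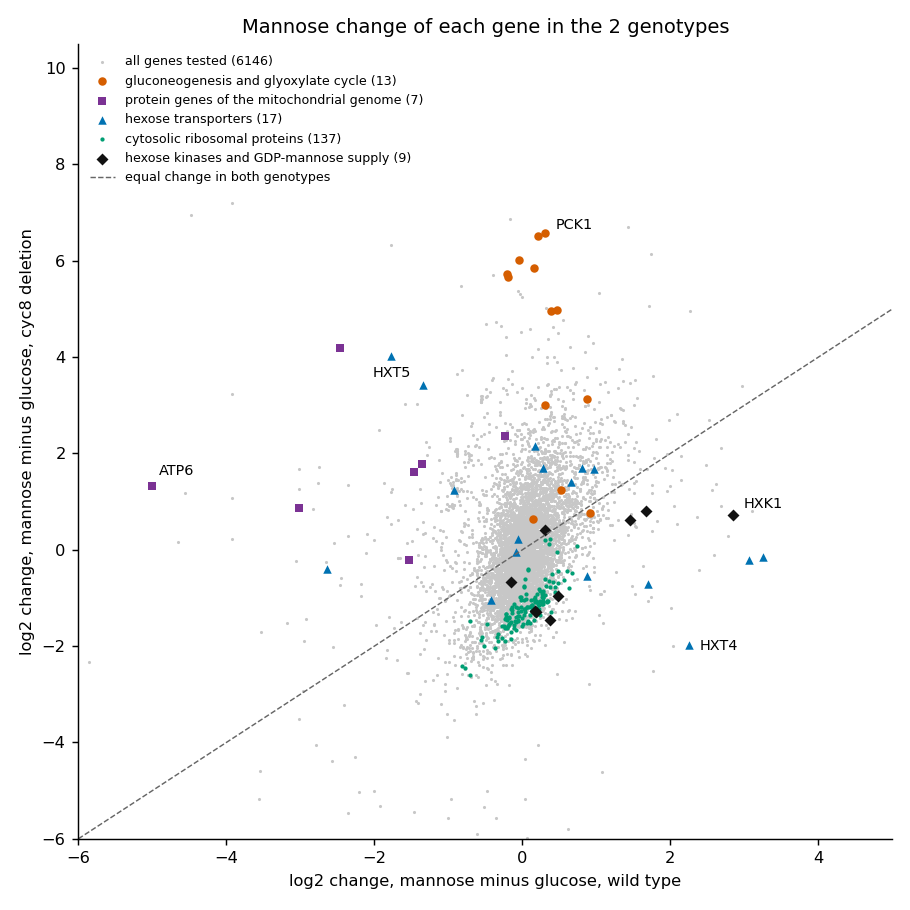
Each point is a gene, with its log2 change from glucose to mannose in wild type (horizontal axis) and in the cyc8 deletion (vertical axis). The dashed line marks equal change. 16 points lie outside the axes. Gluconeogenesis genes sit near 0 on the horizontal axis and high on the vertical one (PCK1 at 6.58 in the deletion), ribosomal protein genes lie below the line, and HXT4 and ATP6 lie in opposite corners.

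The interaction varied with base composition and coding length, not evenly at the ends. The median interaction was −0.44 for the 392 genes of 34% to 36% GC and 0.203 for the 447 above 46%, while the 98 genes of up to 34% were at −0.13. It was −0.45 for the 588 genes of 300 to 500 coding bases and 0.324 for the 238 above 4000, while the 239 of up to 300 bases were at −0.31. The Spearman correlation of GC content with the interaction across 5828 nuclear genes was 0.152, with no p for the same reason as above. The part of base composition and length in single results was not tested, but the interaction with the trends on both removed is given where it differs much.

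Of the 12 genes named for the largest higher interactions 6 belonged to the use of acetate and other carbon sources that cells take up when no sugar feeds glycolysis. The list of gluconeogenesis, glyoxylate cycle and uptake genes had 12 of 13 members called higher and 0 lower. Its median interaction was 4.58, beside −0.08 for all genes. The median change was 0.30 in wild type and 4.97 in the deletion, and 10 members were still called higher at a BCV of 0.2.

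PCK1 (YKR097W, chromosome XI, 631152 to 632801, 1 coding exon, in reference R64 or sacCer3) encodes phosphoenolpyruvate carboxykinase, the first committed enzyme of gluconeogenesis. Wild type had 6.78 and 6.36 CPM in its glucose libraries and 8.08 in mannose. In the deletion it stood at 95.6 and 124 CPM in glucose and 10509 in mannose. The deletion was above wild type in both sugars, and its mannose library was far above the other 5. The interaction of PCK1 was 6.28 ± 0.19 (adjusted p = 1.12e-47, edgeR's quasi-likelihood test).

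ADY2 (YCR010C, chromosome III, 132273 to 133124, 1 coding exon) encodes an acetate transporter. Its levels were 0.851 and 0.845 CPM in wild type in glucose, 0.984 in mannose, 5.93 and 7.87 in the deletion in glucose and 638 in mannose. The interaction was 6.30 ± 0.33.

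MLS1, the malate synthase of the glyoxylate cycle, went from 15.4 and 21.8 to 1077 CPM in the deletion, while wild type had 3.64, 2.80 and 3.57 CPM, the last in mannose. SFC1, a mitochondrial carrier of succinate and fumarate, went from 6.82 and 9.52 to 418 CPM in the deletion, with 2.37, 1.98 and 1.89 in wild type. CIT2, the peroxisomal citrate synthase, differed from these in that the deletion did not stand above wild type in glucose. It had 25.5 and 26.1 CPM in wild type in glucose, 22.4 in mannose, 17.5 and 16.3 in the deletion in glucose and 891 in mannose. IDP2, the cytosolic NADP-dependent isocitrate dehydrogenase, had 8.19, 6.74 and 7.17 CPM in wild type and 9.90, 11.3 and 688 in the deletion. For both of these genes the mannose library of the deletion stood alone, with interactions of 5.93 ± 0.15 (CIT2) and 6.07 ± 0.17 (IDP2).

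The remaining members are named to complete the list, and were chosen after their values were seen. ACS1, an acetyl-CoA synthetase, and ICL1, the isocitrate lyase of the glyoxylate cycle, had interactions of 4.58 ± 0.17 and 4.50 ± 0.15. FBP1, fructose-1,6-bisphosphatase, stood at 2.23 and 3.60 CPM in the deletion in glucose and 23.97 in mannose, an interaction of 2.70 ± 0.30. JEN1, the lactate and pyruvate permease, rose in both genotypes, by 0.87 ± 0.13 in wild type and 3.14 ± 0.09 in the deletion. MDH2 and ICL2 had small interactions of 0.49 and 0.72. ODC1, a mitochondrial dicarboxylate carrier, rose by 0.92 in wild type and 0.76 in the deletion, and its interaction was not called.

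**Figure D2:**
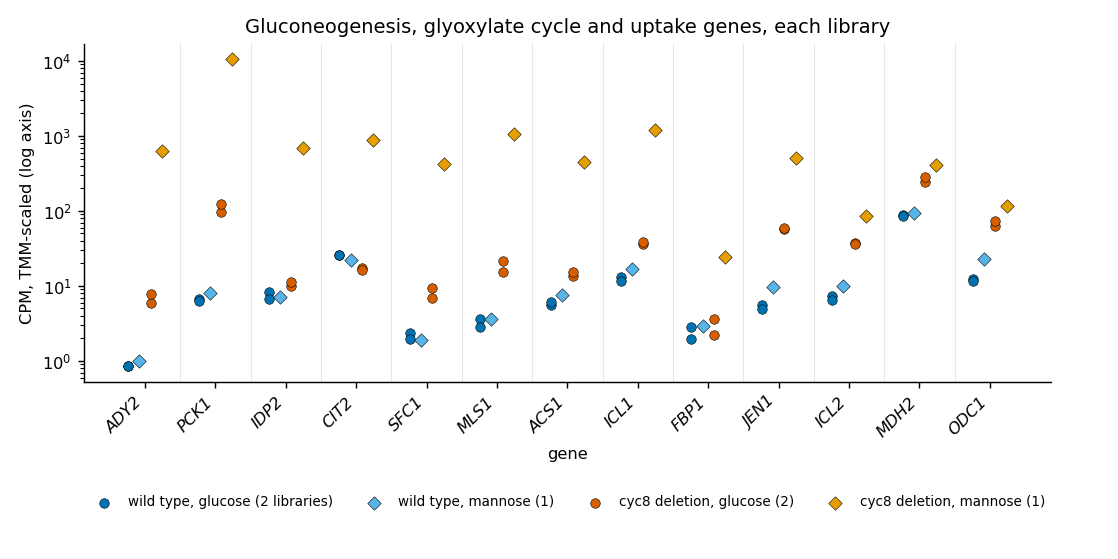
Level of each gene of the list in each library, in TMM-scaled CPM on a log axis, ordered by interaction. Circles are glucose libraries and diamonds mannose libraries, blue for wild type and orange for the cyc8 deletion. In the first 10 genes the mannose library of the deletion (23.97 CPM for FBP1 to 10509 for PCK1) stands well above its own glucose libraries and above the mannose library of wild type.

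The promoters of these genes were searched, on both strands, for letters known to be bound by regulators of carbon source use. The carbon source element, the binding pattern of the activators Cat8 and Sip4, was taken as CCNNNNNNCCG. It was present in the 500 bases before the start of 10 of the 13 genes (76.9%), against 20.7% of 5827 promoters of the same length. In the window from 250 bases before to 50 after the start it was in 1 of 13 (7.69%), against 10.2%. CIT2, JEN1 and ICL2 lacked it, while ODC1, whose interaction was not called, and MDH2, with a small one, held it. Of the cytosolic ribosomal protein genes, whose interactions were lower, 46 of 137 (33.6%) held it too. Both the pattern and the longer window were chosen after the data were seen. The Mig1 core, taken as GCGGGG or GTGGGG or CCGGGG or CTGGGG, which can overlap the carbon source element, was in the 500 bases of 8 of the 13 (61.5%), against 22.7% of all. Other motifs were searched too, and some of them were also above their share of all promoters in the 500 bases. The Hap pattern CCAAT was in 13 of 13, against 62.2%. The Ume6 core GGCGGC was in 5 of 13, against 9.51%, and the stress element AGGGG in 7 of 13, against 34.2%. A match is a description and not a bound site.

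The stretches below hold such matches for PCK1 and ADY2, the largest interactions of the list, and for HXT4, the first of the 12 genes named for the largest lower interactions, described further on. Capitals mark the carbon source element in the first 2, from 500 to 301 bases before the start, and Mig1 cores in the third, from 300 to 151 bases before it. The sequences are from the RefSeq genome R64. They run 5′ to 3′ on the strand of the gene: PCK1 on the plus strand at chrXI:630652-630851, ADY2 on the minus strand at chrIII:133425-133624, HXT4 on the minus strand at chrVIII:288962-289111.
PCK1: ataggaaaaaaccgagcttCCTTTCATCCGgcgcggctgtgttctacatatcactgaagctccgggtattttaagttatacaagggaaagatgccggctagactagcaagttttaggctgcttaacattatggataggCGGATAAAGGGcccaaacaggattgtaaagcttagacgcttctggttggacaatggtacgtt
ADY2: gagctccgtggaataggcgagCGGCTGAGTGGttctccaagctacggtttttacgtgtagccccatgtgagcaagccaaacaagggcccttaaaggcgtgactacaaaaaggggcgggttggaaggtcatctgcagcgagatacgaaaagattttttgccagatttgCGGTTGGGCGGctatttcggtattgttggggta
HXT4: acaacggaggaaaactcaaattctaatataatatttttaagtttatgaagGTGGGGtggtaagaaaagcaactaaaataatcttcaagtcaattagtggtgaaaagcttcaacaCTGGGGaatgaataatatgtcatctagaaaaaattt

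Genes that break down fatty acids and carry acetyl units on carnitine showed the same direction. Of the 18 members of the list 17 were called higher and 0 lower, with a median interaction of 1.92. CTA1, the peroxisomal catalase, had 4.39, 5.05 and 5.26 CPM in wild type (the last in mannose), 3.09 and 2.80 in the deletion in glucose and 170.1 in mannose. YAT2, a carnitine acetyltransferase, had 17.6, 16.0 and 16.4 CPM in wild type and 23.5, 23.4 and 931 in the deletion. Neither gene differed between its glucose groups by anything near its rise in mannose, and the interactions were 5.71 ± 0.20 (CTA1) and 5.34 ± 0.15 (YAT2). PEX11, which was chosen after its values were seen as the exception of the list, had an interaction of 0.14 ± 0.19. The carbon source element was in the 500 bases before 9 of the 18 genes, against the same 20.7%.

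SPG4, a small gene known for its part in survival in stationary phase, was the fourth of the 12 genes named for the largest higher interactions. SPG4 had 0.612, 0.756 and 0.388 CPM in wild type and 7.12, 9.37 and 369 in the deletion, an interaction of 6.29 ± 0.40. No carbon source element lay in its promoter at the positions shown for PCK1 and ADY2.

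Most nuclear genes of respiration rose in both genotypes. Of 18 TCA cycle genes 14 rose in wild type and 17 in the deletion, and 14 had a higher interaction, with a median of 0.87. KGD1, a subunit of α-ketoglutarate dehydrogenase, stood at 217 and 206 CPM in wild type in glucose, 340.1 in mannose, 357 and 359 in the deletion in glucose and 3134 in mannose. Its interaction was 2.44 ± 0.14. CIT3, a minor citrate synthase of mitochondria, went from 2.81 and 4.97 to 30.1 CPM in the deletion and from 1.92 and 1.67 to 3.49 in wild type, with an interaction of 1.95 ± 0.29. Of 32 nuclear genes of the respiratory chain and ATP synthase 25 rose in wild type, 27 rose and 3 fell in the deletion, and 22 were higher and 6 lower in the interaction, with a median of 0.60. With upper-quartile factors these counts were 16 and 7.

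Small subunits stood at both ends of that list. COX13 and COX7, subunits of cytochrome c oxidase, had interactions of 2.42 ± 0.13 and 1.53 ± 0.20. ATP20 and ATP18, small subunits of the ATP synthase, had interactions of −1.66 ± 0.19 and −0.78 ± 0.15. COX13 went from 83.8 and 72.8 to 549 CPM in the deletion, while ATP20 went from 21.3 and 25.0 to 8.67. With the trends on GC content and length removed ATP20 was at −1.03. Of 43 genes of mitochondrial ribosomal proteins 28 were lower and 2 higher, with a median of −0.60, and at a BCV of 0.2 1 was lower and 0 higher. That list rose in wild type in 24 members, beside 1263 of all 6146 genes. It fell in the deletion in 20, near the share of all genes (2438 of 6146). MRPL22 (interaction −1.49 ± 0.17) and MRPL32 (−1.37 ± 0.25) were its lowest, and MRPL24 (0.73) and MRPL4 (0.72) its 2 higher members.

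Protein genes of the mitochondrial genome went opposite ways in the 2 mannose libraries. All 7 that were tested, of 8, had a higher interaction, with a median of 3.13. Of these, 6 fell in wild type and 6 rose in the deletion. ATP6 (mitochondrial genome, 28487 to 29266), a subunit of the ATP synthase, had 70.6 and 69.6 CPM in the glucose libraries of wild type and 2.17 in its mannose library. In the deletion it had 40.1 and 16.4 CPM in glucose and 69.9 in mannose. The wild-type mannose library was thus the one that stood apart for ATP6, while for VAR1, the protein of the mitochondrial ribosome that its genome encodes, it was the other one. VAR1 had 0.825, 0.645 and 0.129 CPM in wild type and 0.886, 0.542 and 12.7 in the deletion. In the wild-type mannose library 3 counts are 0.0769 CPM, so the fall of VAR1 in wild type rests on few counts. The interactions were 6.34 ± 0.27 (ATP6) and 6.65 ± 0.59 (VAR1).

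COB, apocytochrome b, had 326 and 259 CPM in wild type in glucose, 36.1 in mannose, 276 and 297 in the deletion in glucose and 520.4 in mannose. COX1, COX2 and COX3, the core of cytochrome c oxidase, had interactions of 3.13 ± 0.15, 2.60 ± 0.16 and 3.08 ± 0.14. OLI1, another ATP synthase subunit, fell in both genotypes, with changes of −1.53 ± 0.11 in wild type and −0.22 ± 0.10 in the deletion. BI2 and AI3, reading frames in introns of COB and COX1 that overlap those genes, had interactions of 5.74 ± 0.21 and 4.15 ± 0.17. Their reads cannot be told apart from those of the host transcripts. These results move with the share of mitochondrial reads given above, whose part in them was not tested, and mitochondrial genes were not covered by the correction for GC content and length.

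The list of 17 hexose transporters had 6 members called higher and 6 lower, near the shares of all genes (29.7% and 34.4%). In this list 8 members have near-identical copies and are uncertain. HXT14, whose fitted interaction was the highest of the list, had at most 0.484 CPM in any library, too little for a fold. HXT4 (YHR092C, chromosome VIII, 287081 to 288811, 1 coding exon), a transporter of intermediate to high affinity, had 11.9 and 10.8 CPM in the glucose libraries of wild type and 53.7 in its mannose library. In the deletion it had 2514 and 2537 CPM in glucose and 645 in mannose. Every deletion library lay above every wild-type library, and mannose moved the 2 genotypes toward each other, with an interaction of −4.22 ± 0.16 (adjusted p = 9.36e-42). Its promoter, shown above, held 2 Mig1 cores within the stretch printed. PMP2 and SSU72, which follow HXT4 among the 12 genes named for the largest lower interactions, held 0 at those positions.

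HXT2, another such transporter, had 173 and 175 CPM in wild type in glucose, 565 in mannose, 3930 and 3965 in the deletion in glucose and 2422 in mannose. HXT7, a transporter of high affinity whose reads are shared with HXT6, rose in wild type from 106 and 110.3 to 1033 CPM and stood at 2526, 2535 and 2271 in the deletion. Its interaction was −3.41 ± 0.15. HXT2 fell in the deletion and HXT7 did not pass the test there, while HXT5 had a higher interaction. HXT5, which is known for its expression at slow growth, fell in wild type from 9.13 and 7.45 to 3.26 CPM and rose in the deletion from 31.9 and 34.7 to 358. HXT1, the transporter of low affinity that high glucose induces, chosen after its values were seen, fell in wild type from 213 and 193 to 32.4 CPM and in the deletion from 221 and 216 to 167. Mig1 cores were in the 500 bases before 12 of the 17 genes (70.6%), against 22.7% of all promoters. That longer window was chosen after the data were seen. In the window from 250 bases before to 50 after the start the cores were in 4 of 17 (23.5%), against 11.5%. The matches were counted for the list as a whole, whose members were called in both directions, and are a description.

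**Figure D3:**
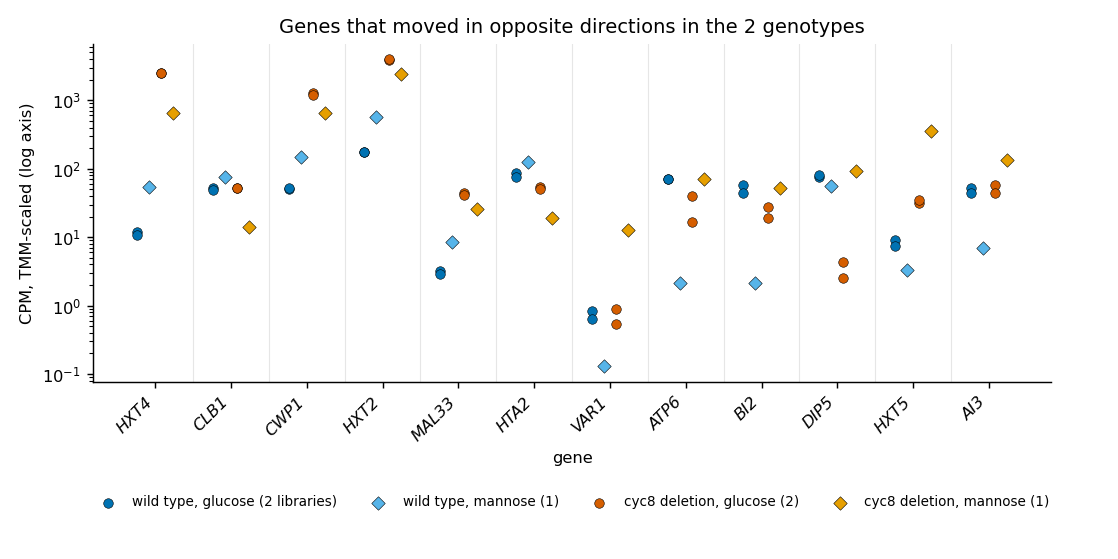
Level in each library, in TMM-scaled CPM on a log axis, of the 6 genes with the largest interaction among those that rose in wild type and fell in the deletion (HXT4 to HTA2) and of the 6 among those that fell in wild type and rose in the deletion (VAR1 to AI3). Circles are glucose and diamonds mannose, blue for wild type and orange for the cyc8 deletion. The diamonds of HXT4, at 53.7 and 645 CPM, lie between the circles of the 2 genotypes. The fall of VAR1 in wild type rests on few counts.

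The first enzymes that act on mannose were lower in the interaction. Of the 9 hexose kinase and GDP-mannose genes 8 were called lower and 0 higher, with a median of −1.44, and 5 were lower at a BCV of 0.2. PMI40, phosphomannose isomerase, which leads mannose into glycolysis, had 231 and 216 CPM in wild type in glucose, 312 in mannose, 259.9 and 251 in the deletion in glucose and 132 in mannose. SEC53, the phosphomannomutase of GDP-mannose synthesis, had 389 and 379 CPM, 496 in mannose, and 385, 369 and 138 in the deletion. Both rose in wild type and fell in the deletion, from glucose levels that were close in the 2 genotypes.

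PSA1, which makes GDP-mannose, and VRG4, which carries it into the Golgi, fell in the deletion, with changes of −1.28 ± 0.11 and −1.30 ± 0.10, and had no call in wild type. The kinase genes had another pattern. HXK1, a hexokinase, rose from 117 and 123 to 862 CPM in wild type and from 2646 and 2554 to 4292 in the deletion, an interaction of −2.12 ± 0.15. GLK1 and EMI2 also rose in both, with interactions of −0.86 and −0.84. HXK2, the hexokinase of glucose-grown cells, fell in the deletion, with a change of −0.68 ± 0.11 and an interaction of −0.52. DPM1, which makes dolichol phosphate mannose, had an interaction of 0.10 that was not called and stood at −0.30 without trends on GC content and length.

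Of 30 regulators of sugar signalling 10 were called higher and 10 lower, with a median of −0.01. These shares are near those of all genes (29.7% higher and 34.4% lower), and only members are described. With upper-quartile factors 9 were higher and 14 lower. MTH1, a corepressor of the hexose transporter genes, rose in wild type from 5.51 and 5.96 to 34.6 CPM. In the deletion it was at 153, 140.3 and 136 CPM, a mannose change of −0.11 ± 0.09 that was not called, and the interaction was −2.70 ± 0.15. SIP4, an activator that binds the carbon source element, had 1.92, 1.73 and 1.66 CPM in wild type and 3.30, 4.92 and 54.9 in the deletion. CAT8, the other such activator, chosen after its values were seen, rose in both genotypes, from 10.7 and 11.03 to 22.6 CPM in wild type and from 57.1 and 65.8 to 383 in the deletion. GPA2, the G protein that acts with the sugar receptor Gpr1, had an interaction of 2.87 ± 0.14, and SNF4, a subunit of the Snf1 kinase, one of −1.09 ± 0.15.

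Among the corepressor and the repressors that recruit it, 12 of 21 were higher and 4 lower, with a median of 0.38. With upper-quartile factors 8 were higher and 6 lower, with a median of 0.14. The 12 include CYC8 itself, with its few remaining counts. They also include MATALPHA2, a gene of mating type alpha, at 1.12, chosen after its values were seen. In this list 1 member has a near-identical copy. MIG3, a repressor of the Mig1 family, fell in wild type from 20.7 and 21.0 to 4.09 CPM and rose in the deletion from 24.1 and 21.3 to 57.7, an interaction of 3.70 ± 0.18. RGT1, which represses the hexose transporter genes, stood at 71.99, 69.5 and 68.8 CPM in wild type and 70.4, 73.0 and 405 in the deletion. For RGT1 the mannose library of the deletion was the one that differed. AFT1, the activator of iron uptake, and NRG1, a repressor of glucose-repressed genes, had lower interactions of −0.84 ± 0.14 and −0.67 ± 0.16.

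The genes for maltose, isomaltose and sucrose use had 8 of 14 members higher and 4 lower, and 7 have near-identical copies. MAL33, a maltose regulator, rose in wild type from 3.17 and 2.94 to 8.47 CPM and fell in the deletion from 44.6 and 40.7 to 25.4. SUC2, invertase, had 53.2 and 56.6 CPM in wild type in glucose, 107 in mannose, 2476 and 2352 in the deletion in glucose and 1872 in mannose, an interaction of −1.33 ± 0.15. The order of the 4 groups was thus the same as for HXT4. MAL11, a maltose permease, went the other way, from 28.7 and 30.3 to 164 CPM in the deletion, with an interaction of 1.60 ± 0.16, followed by IMA2, an isomaltase with a near-identical copy, at 1.37 ± 0.17.

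The galactose list had 3 of 7 members higher. GAL80, the inhibitor of the galactose regulon, fell in wild type from 62.2 and 66.0 to 50.3 CPM and rose in the deletion from 55.5 and 52.7 to 152, an interaction of 1.84 ± 0.13. GAL1 and PGM2 had interactions of 0.80 and 0.44, and those of GAL3, GAL4, GAL7 and GAL10 were not called. The polyol list, transporters and dehydrogenases of which 8 of 10 members have near-identical copies, had 6 higher and 0 lower members. MAN2, annotated as a mannitol dehydrogenase, had 2.31, 2.47 and 3.37 CPM in wild type and 392, 457 and 1933 in the deletion. Its relatives DSF1, SOR1, SOR2 and XYL2 were higher, at 1.86 ± 0.21, 1.43 ± 0.22, 1.48 ± 0.22 and 1.04 ± 0.33. HXT13, a transporter of this group, was at 2.00 ± 0.38, and the interactions of HXT15, HXT16, HXT17 and the reductase GRE3 were not called.

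Glycolytic genes differed little. Of 14, 5 were higher and 1 lower, with a median of 0.29 that becomes −0.10 without trends on GC content and length. TDH1, the isozyme of glyceraldehyde-3-phosphate dehydrogenase known from slow growth, went from 3304 and 3298 to 8790 CPM in the deletion, with an interaction of 1.55 ± 0.15. ENO1, an enolase, was next, at 0.76 ± 0.15, and TDH3, the main isozyme of Tdh1's reaction and uncertain for a near-identical copy, was the lower one, at −0.40 ± 0.17. The list of pyruvate, ethanol and acetaldehyde genes had 8 of 16 higher and 3 lower, with a median of 0.29. That median was 0.04 with upper-quartile factors, with 7 higher and 5 lower, and 0.03 without trends on GC content and length. The members of this list lay far apart. PYC1, pyruvate carboxylase, had 245 and 241 CPM in wild type in glucose, 265 in mannose, 414 and 424 in the deletion in glucose and 6711 in mannose. PDC1, the main pyruvate decarboxylase of fermentation, had 24373, 23838 and 25008 CPM in wild type and 26986, 24603 and 9388 in the deletion. The interactions were 3.88 ± 0.15 (PYC1) and −1.51 ± 0.17 (PDC1), and that of PDC5, a further decarboxylase, was −1.22 ± 0.14. PDC6, a minor decarboxylase, was higher, at 3.11 ± 0.25.

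Most trehalose and glycogen genes rose in both genotypes. Of 20 trehalose and glycogen genes 16 rose in wild type and 18 in the deletion, and the interaction was higher for 10 and lower for 5. Those interaction counts were 9 and 7 with upper-quartile factors. The median interaction of 0.43 becomes 0.02 without trends on GC content and length. GSY1, a glycogen synthase, and GPH1, glycogen phosphorylase, had the largest lower values, −1.68 ± 0.13 and −1.33 ± 0.15. GSY1 rose from 13.5 and 12.7 to 67.4 CPM in wild type and from 214 and 202 to 335 in the deletion. PIG2 and GLG2, a phosphatase targeting subunit and a glycogen primer, had the largest higher values, 1.84 ± 0.19 and 1.804 ± 0.158. Of 20 oxidative and general stress genes 13 rose and 1 fell in wild type, 18 rose in the deletion, and 13 were higher and 0 lower in the interaction, with a median of 0.67. With upper-quartile factors 11 were higher and 4 lower. GPX2, a glutathione peroxidase, was apart in that it had 34.6, 30.4 and 23.6 CPM in wild type, 4.58 and 4.36 in the deletion in glucose and 27.2 in mannose. SRX1, sulfiredoxin, went from 5.13 and 5.82 to 61.7 CPM in the deletion and from 1.17 and 1.67 to 3.11 in wild type.

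Of 26 heat shock and chaperone genes 7 rose and 10 fell in wild type, 15 rose and 6 fell in the deletion, and 17 were higher and 5 lower in the interaction, with a median of 0.48. HSP30, a plasma membrane heat shock protein, had 4.23, 3.80 and 5.05 CPM in wild type and 35.4, 49.2 and 676 in the deletion. HSP42, a small heat shock protein, had 37.9, 42.9 and 47.1 CPM in wild type and 182, 166 and 1809 in the deletion. The lowest of the list were SSB1 and SSB2, chaperones bound to ribosomes and near-identical to each other, at −1.08 ± 0.15 and −0.88 ± 0.15. They rose in wild type and fell in the deletion. In the salt and osmotic stress list 6 of 15 were higher and 1 lower, and its median of 0.12 changes sign with upper-quartile factors, library totals or the GC and length correction. SIP18 and GRE1, related hydrophilin genes, were its highest, at 4.2005 ± 0.5409 and 3.58 ± 0.30, and GRE2, a reductase, was the lower one, at −0.40 ± 0.13.

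Genes of growth mostly fell in the deletion in mannose. Of 137 cytosolic ribosomal protein genes 134 had a lower interaction and 0 a higher one, with a median of −1.27, and 40 have near-identical copies. In wild type 35 of them rose and 17 fell, with a median change of 0.06. In the deletion 1 rose and 132 fell, with a median of −1.20. RPS22A, of the small subunit, had 1164, 1198 and 1064 CPM in wild type and 596, 507 and 152 in the deletion. RPL39, a very short gene of the large subunit, had 249, 335 and 179 CPM in wild type and 238, 206 and 36.6 in the deletion. The interactions were −1.71 ± 0.14 (RPS22A) and −1.89 ± 0.15 (RPL39), the largest lower values of the list. With the GC and length trends removed 137 of 137 were lower, and with a BCV of 0.2 it was 45.

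Ribosome assembly genes were lower in 25 of 37 and higher in 2, with a median of −0.53, and at a BCV of 0.2 in 1 and 0. GAR1, of the box H/ACA particles that guide pseudouridylation, went from 39.6 and 39.6 to 15.0 CPM in the deletion, with 59.8, 66.9 and 68.2 in wild type. RPA12, a subunit of RNA polymerase I, had an interaction of −1.39 ± 0.22. NOP2 and MRD1, nucleolar factors of rRNA processing, were the 2 higher ones, at 1.06 ± 0.13 and 0.42 ± 0.13. The promoters of this list share letters. In the window from 250 bases before to 50 after the start the PAC element, GATGAG, was in 36 of 37 (97.3%, against 20.5% of all) and the RRPE element, AAAATTTT, in 32 (86.5%, against 9.11%). NOP2 and MRD1 moved against the list. The matches were counted for the list as a whole and are a description.

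**Figure D4:**
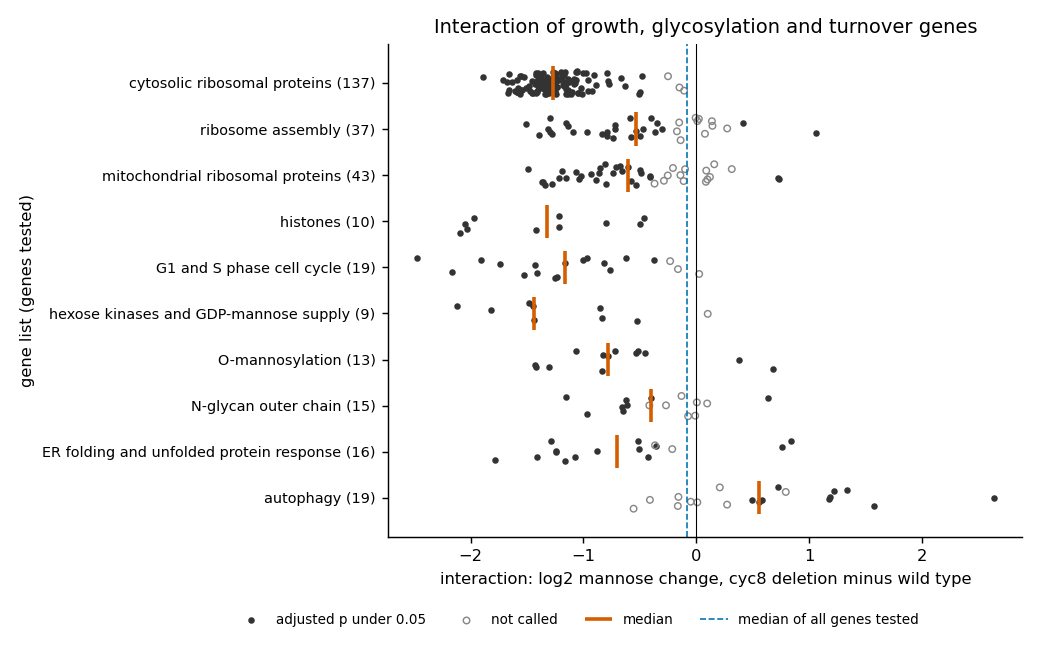
Interaction of each gene (horizontal axis, log2 mannose change in the deletion minus that in wild type) in 10 lists. Filled points passed an adjusted p of 0.05, open points did not, orange bars are list medians and the dashed line is the median of all genes (−0.08). The points of the cytosolic ribosomal proteins (median −1.27) and the histones (−1.32) lie left of 0, and autophagy genes lean right (0.55).

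Histone genes were lower in 10 of 10, with a median of −1.32. HTA2, a histone H2A gene, had 87.9, 76.6 and 124 CPM in wild type and 54.2, 51.1 and 19.1 in the deletion, the last of each in mannose. HTB2, for H2B, had 240.4, 237 and 249 CPM in wild type and 139.9, 136 and 35.2 in the deletion. HHF1 and HHF2, near-identical H4 genes, had interactions of −2.10 and −1.97. HTA1, HTZ1, HHT1 and HTB1 stood at −1.42, −1.22, −1.22 and −0.80. HHT2 and HHO1, for H3 and the linker histone, had the smallest, at −0.50 and −0.46. Cell cycle genes followed, with 16 of 19 lower, 0 higher and a median of −1.16. CLB1, a mitotic cyclin, rose in wild type from 52.7 and 48.4 to 74.6 CPM and fell in the deletion from 52.8 and 52.4 to 14.0. CLB2, its close relative, had 73.1, 70.3 and 77.9 CPM in wild type and 33.95, 41.6 and 9.19 in the deletion. For both cyclins the mannose library of the deletion was the lowest of the 6.

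RNR1, the large subunit of ribonucleotide reductase that S phase induces, had 497, 474 and 447 CPM in wild type and 545, 533 and 175 in the deletion, an interaction of −1.51 ± 0.14. Of the 10 ribonucleotide reductase and DNA damage genes 5 were lower and 1 higher. HUG1, which is induced by DNA damage, had 2.50, 3.25 and 1.81 CPM in wild type and 82.4, 72.8 and 16.2 in the deletion. RNR3, the damage-inducible large subunit, was at 6.12, 5.94 and 7.82 CPM and at 546, 522 and 326. RNR2, a small subunit, and DDR48, a stress gene, were lower too, at −0.77 ± 0.15 and −0.58 ± 0.14. RAD54, of recombination, was the higher one, at 0.94 ± 0.14. The interactions of DUN1, RNR4 and SML1 were not called.

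At the cell surface the lists differed. Of 24 seripauperins, small wall proteins of anaerobic growth, 18 were lower and 1 higher, with a median of −1.62. No member was called for mannose in wild type, while 20 fell in the deletion. PAU23, at 1.63 ± 0.39, was the higher one. As 21 of them have near-identical copies their counts are uncertain. PAU1 and PAU14 were listed with equal levels, 1.38, 1.16 and 1.68 CPM in wild type and 1452, 1216 and 380.3 in the deletion. Of the DAN and TIR mannoproteins, also anaerobic, 5 of 6 were lower. TIR4 rose in wild type from 6.31 and 6.74 to 12.3 CPM and fell in the deletion from 236 and 262 to 139.7. TIR1, TIR2, TIR3 and DAN1 had interactions of −0.79, −0.60, −0.83 and −0.88. DAN4 was the exception, at 0.73, and it was at 0.21 without trends on GC content and length.

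Flocculin genes, whose products make cells stick to each other and to surfaces, were higher in 7 of 9 together with their activators, and lower in 0. FLO11 had 11.01, 10.6 and 14.2 CPM in wild type and 165, 184 and 1707 in the deletion, an interaction of 2.90 ± 0.15. FLO1 fell in wild type from 29.6 and 31.0 to 22.9 CPM and rose in the deletion from 423 and 394 to 1021. FLO9 did likewise, and FLO5 and FLO10 had interactions of 0.52 and 0.94. The repeats of these genes are alike, and their counts are uncertain. Of the activators MGA1 (1.58) and MSS11 (0.44) were called, FLO8 and TEC1 were not.

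Wall mannoproteins were split, with 6 of 16 higher and 9 lower. CWP1 rose in wild type from 51.3 and 52.2 to 149 CPM and fell in the deletion from 1263 and 1209.6 to 657. CWP2 likewise rose from 1339.9 and 1515 to 2178 and fell from 1951 and 1723 to 765. SPI1, a wall protein of stress and stationary phase, and FIT1, which holds siderophores at the wall, were the highest, at 2.24 ± 0.16 and 1.56 ± 0.16. The enzymes that remodel wall glucan and separate daughters were lower in 19 of 25 and higher in 4, with a median of −1.07. GAS1, the main glucan elongating enzyme, had 1652, 1647 and 1716 CPM in wild type and 1229.7, 1259.8 and 334 in the deletion. UTR2, a transglycosylase of chitin and glucan, had an interaction of −1.95 ± 0.14. CHS1, the chitin synthase of repair, and GAS5 were higher, at 2.29 ± 0.13 and 0.82 ± 0.13.

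Of the lists of protein glycosylation, the subject of the study's mannose condition, that of O-mannosylation was mostly lower. In the O-mannosylation list 11 of 13 were lower and 2 higher, with a median of −0.78. PMT4, an O-mannosyltransferase of the endoplasmic reticulum (ER), had 335, 329 and 338 CPM in wild type and 259, 241 and 94.1 in the deletion. PMT7 had an interaction of −1.42 ± 0.19, close to the −1.43 ± 0.13 of PMT4. KRE2 and MNT3, Golgi enzymes that add the next mannoses, were the higher ones, at 0.68 ± 0.13 and 0.38 ± 0.15. Of 15 genes of the N-glycan outer chain 7 were lower, 1 higher and 7 not called, and with upper-quartile factors 11 were lower. MNN11 and MNN9, subunits of Golgi mannan polymerase, stood at −1.16 ± 0.15 and −0.97 ± 0.14. KTR6, of mannosylphosphate transfer, stood at 0.64 ± 0.14. At a BCV of 0.2 the numbers called lower in these 2 lists were 2 of 13 and 0 of 15, beside 4.3% of all genes.

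Of the 9 genes that trim or degrade mannose-bearing glycans or receive Ams1, 3 were higher and 5 lower, and with upper-quartile factors 1 and 5. AMS1 (YGL156W, chromosome VII, 210416 to 213667, 1 coding exon), the vacuolar α-mannosidase, had 12.9 and 12.8 CPM in wild type in glucose, 23.9 in mannose, 119.9 and 136 in the deletion in glucose and 1025 in mannose. It rose in both genotypes, and the interaction was 2.11 ± 0.14. ATG19 and ATG34, the receptors that bring Ams1 to the vacuole, had smaller ones of 0.31 and 0.49. The 5 lower ones act on N-glycans in the ER. CWH41 was at −0.70, ROT2 at −0.65, MNS1 at −0.73, MNL1 at −0.83 and MNL2 at −0.35. PNG1, the cytosolic peptide N-glycanase that releases free N-glycans, had 8.09, 7.36 and 9.24 CPM in wild type and 7.70, 7.14 and 9.59 in the deletion, and its interaction of 0.11 ± 0.23 was not called.

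ER folding genes were lower in 12 of 16 and higher in 2, with a median of −0.70. LHS1, an ER chaperone, had 104, 100.4 and 95.8 CPM in wild type and 159, 148 and 41.7 in the deletion. EUG1, a disulfide isomerase relative, had an interaction of −1.41 ± 0.15. EPS1, another isomerase relative, and HAC1, the transcription factor of the unfolded protein response, were higher, at 0.76 ± 0.13 and 0.84 ± 0.14. The level of HAC1 went from 985 and 969 to 2428 CPM in the deletion, while the count does not tell spliced from unspliced transcripts. Autophagy genes were higher in 10 of 19 and lower in 0, with a median of 0.55, and with upper-quartile factors 6 were higher and 2 lower. ATG8, the ubiquitin-like protein of the autophagosome, had 3.03, 3.45 and 4.04 CPM in wild type and 6.72, 6.76 and 52.0 in the deletion. ATG29 followed at 1.58 ± 0.30.

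Vacuolar proteases differed little between the genotypes. They rose in wild type in 8 of 10 and in the deletion in 9 of 10, and 4 were higher and 1 lower in the interaction, AMS1 among the former. PRB1, proteinase B, was the lower one, at −0.45 ± 0.14, and APE3 the next higher one, at 0.83 ± 0.14. DAP2 was at 0.30 ± 0.13, and the interactions of APE1, PBI2, ATG42, PEP4 and CPS1 were not called. PRC1, carboxypeptidase Y, was at 0.36 ± 0.14, and at −0.05 without trends on GC content and length. The median of 0.02 has no stable sign under the scalings tried. Proteasome genes were higher in 10 of 33 and lower in 7, with a median of 0.13 that upper-quartile factors take to −0.11, with 4 higher and 12 lower. RPN4, their activator, and RPN5 were higher, at 1.04 ± 0.13 and 1.30 ± 0.13, and PRE1 and RPN9 lower, at −1.03 ± 0.14 and −0.76 ± 0.16.

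Most phosphate genes fell in wild type. Of 17, 13 fell in wild type and 6 fell in the deletion, and 12 were higher in the interaction and 2 lower, with a median of 0.88. SPL2, an inhibitor of low-affinity phosphate uptake, fell in wild type from 6.997 and 8.83 to 1.55 CPM and stood at 0.703, 1.39 and 1.32 in the deletion. PHO12, an acid phosphatase with a near-identical copy, fell from 70.3 and 80.2 to 25.5 CPM in wild type and stood at 41.7, 35.5 and 42.6 in the deletion. In both genes the wild-type glucose libraries were the highest of the 6. PHO3, a constitutive acid phosphatase, and VTC1, of polyphosphate synthesis, were lower, at −0.53 ± 0.13 and −0.35 ± 0.14.

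Most iron uptake genes fell in the deletion, 14 of 20. Of these 20 members 12 were lower and 4 higher, with a median of −0.81, and 9 were lower at a BCV of 0.2. SIT1, a siderophore transporter, had 50.3, 50.6 and 52.7 CPM in wild type, 549 and 506 in the deletion in glucose and 115 in mannose. FIT2, a siderophore-binding wall protein, had 70.0, 79.7 and 77.2 CPM in wild type and 983, 831 and 254 in the deletion. Their interactions were −2.26 ± 0.14 (SIT1) and −1.88 ± 0.14 (FIT2), the lowest of the list. FIT1 and ARN2 were the highest, the latter at 0.87 ± 0.14.

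Nitrogen genes were higher in 15 of 22 and lower in 1, with a median of 1.20, and 10 were higher at a BCV of 0.2. GDH3, a glutamate dehydrogenase of growth without fermentable sugar, had 5.29, 7.16 and 8.72 CPM in wild type and 24.1, 24.02 and 547 in the deletion. GDH2, the glutamate dehydrogenase that breaks glutamate down, had 60.8, 53.8 and 64.4 CPM in wild type and 49.0, 53.8 and 446 in the deletion. DAL1, of allantoin use, was the lower one, at −1.09 ± 0.42.

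Of 23 amino acid permease genes 12 were higher and 4 lower, and with the GC and length correction 7 and 8. DIP5 (YPL265W, chromosome XVI, 41043 to 42869), a permease for glutamate and aspartate, fell in wild type from 75.9 and 80.2 to 55.6 CPM and rose in the deletion from 2.54 and 4.40 to 91.1. DIP5 stood low in the deletion in glucose and near the level of wild type in mannose, with an interaction of 5.17 ± 0.17. AGP3 was next, at 2.02 ± 0.39, and MUP1, for methionine, the lowest, at −0.91 ± 0.13, followed by ALP1, at −0.74 ± 0.34. Of 40 amino acid synthesis genes 15 were higher and 12 lower, and with upper-quartile factors 11 and 18. ARG1, of arginine synthesis, had 66.5, 67.1 and 48.7 CPM in wild type and 5.90, 6.19 and 32.8 in the deletion, much as DIP5. CPA1, of the same pathway, was at 2.91 ± 0.13, and MET16 and MET14, of sulfate assimilation, at −1.64 ± 0.25 and −1.39 ± 0.17.

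Of the 16 hypoxic and sterol uptake genes 6 were higher and 7 lower, and with upper-quartile factors 3 and 8. OLE1, the fatty acid desaturase, had 401, 421 and 443 CPM in wild type and 298, 297 and 7157 in the deletion, an interaction of 4.48 ± 0.15. ECM22, a sterol regulator, was next, at 1.83 ± 0.13. ERG3, of ergosterol synthesis, and CYB5, cytochrome b5, an electron donor for such reactions, were the lowest, at −1.35 ± 0.14 and −1.73 ± 0.21.

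Sexual differentiation genes were called in 3 of 7, 8 of 16 and 6 of 20 members of their lists, beside 64.2% of all genes. Of 7 a-specific genes 1 was higher (BAR1, 0.60 ± 0.17) and 2 were lower (STE2, −0.90 ± 0.14, and STE6, −0.54 ± 0.13). The interactions of MFA1, MFA2, AGA2 and ASG7 were not called. Of 16 haploid and pheromone genes 4 were higher and 4 lower. HO, the mating-type endonuclease gene, had 86.4, 88.9 and 84.6 CPM in wild type and 15.0, 12.04 and 4.57 in the deletion. FAR1, which arrests the cell cycle on pheromone, was lower as well, at −0.84 ± 0.15. PRM1 and FUS1, of cell fusion in mating, were higher, at 2.91 ± 0.34 and 2.35 ± 0.40. Of the 20 meiosis and spore wall genes tested 5 were higher and 1 lower. IME1, the master regulator of meiosis, had 7.34, 6.25 and 5.46 CPM in wild type and 43.9, 39.2 and 302 in the deletion, an interaction of 3.17 ± 0.17. SPS100, of the spore wall, went from 11.7 and 14.0 to 144 CPM in the deletion, and SPS4, another sporulation gene, was the lower one, at −1.497 ± 0.38. The COS genes near chromosome ends, 6 of 12 with near-identical copies, had 1 higher and 7 lower. COS12 and COS9 were the lowest, at −2.03 ± 0.55 and −1.06 ± 0.19, and COS10 was the higher one, at 0.58 ± 0.23.

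Some of the 12 largest lower interactions came from short genes. PMP2, which encodes a small proteolipid of the plasma membrane proton pump, had 16.2, 18.8 and 3.78 CPM in wild type and 10.97, 12.2 and 0.352 in the deletion. It fell in both genotypes, and its coding length is 132 bases. SSU72, a phosphatase of RNA polymerase II, had an interaction of −2.74 ± 0.34, LSM2, of mRNA decay and splicing, −2.39 ± 0.25, EMC5, of the ER membrane complex, −2.65 ± 0.32, and KEI1, of sphingolipid synthesis, −2.35 ± 0.23. With the GC and length trends removed they were at −2.41 (PMP2), −2.20 (SSU72), −1.79 (LSM2), −2.03 (EMC5) and −1.83 (KEI1). The other members of those 12 were little moved by that correction, for example HXT4 at −4.35 and SIT1 at −2.50.

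The fixed BCV of 0.2 left few calls in many lists. At this setting 9.01% of all genes tested were called higher and 4.3% lower. Of the higher lists, TCA cycle genes had 7 of 18 higher, heat shock genes 7 of 26 and stress genes 6 of 20. Phosphate genes had 5 of 17. The respiratory chain (4 of 32) and autophagy genes (2 of 19) were near the share of all genes. Of the lower lists, seripauperins had 14 of 24 lower, cell cycle genes 7 of 19, histones 5 of 10, glucan remodelling 5 of 25 and ER folding 2 of 16.

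**Figure D5:**
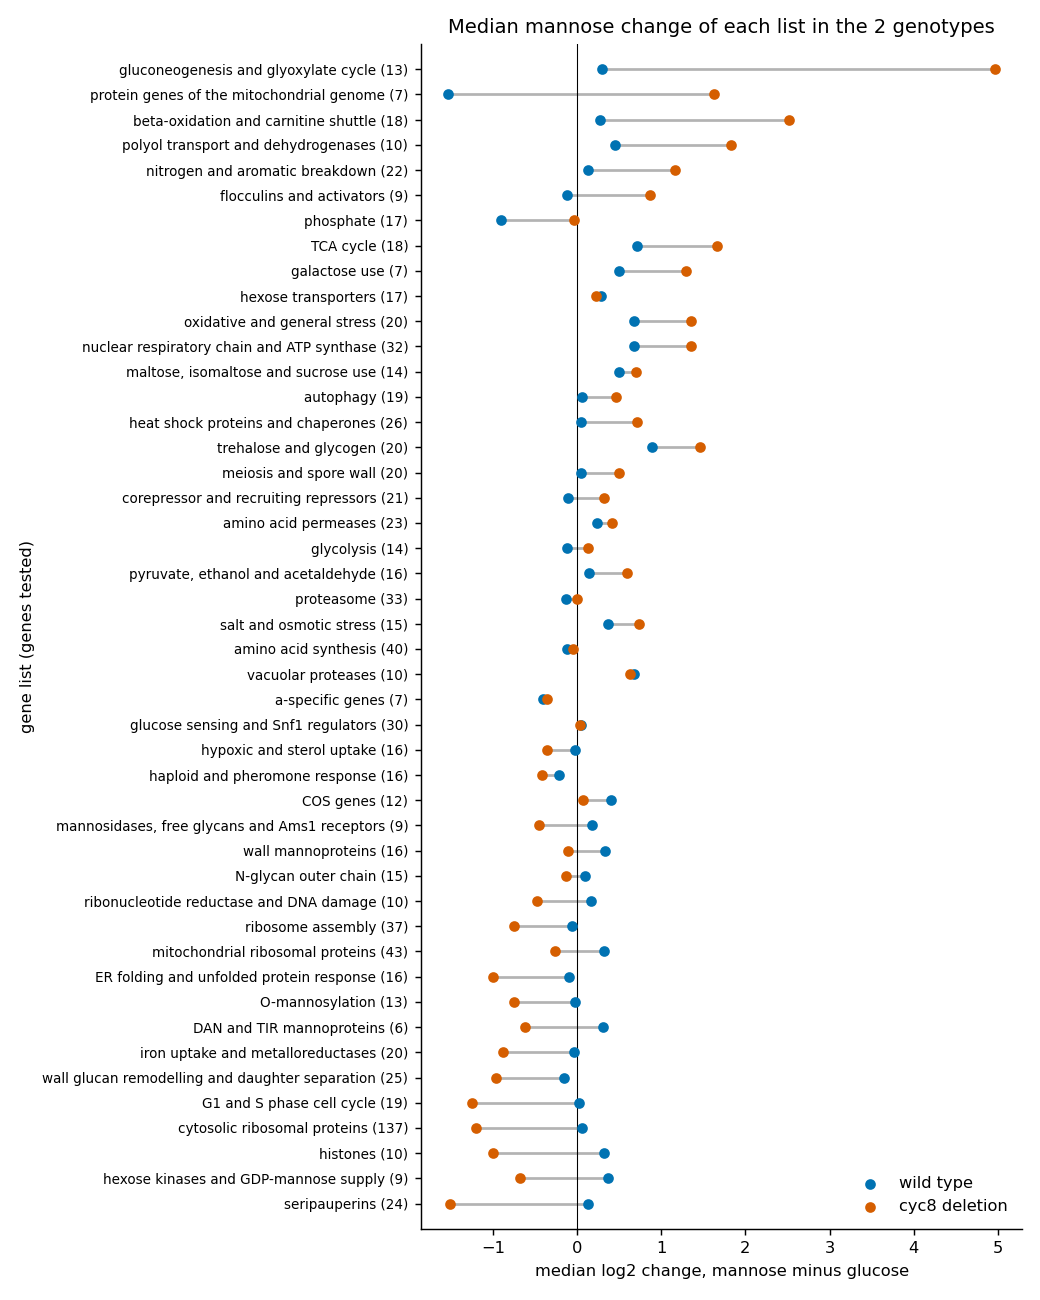
Median log2 change from glucose to mannose of each of the 46 gene lists in wild type (blue) and in the cyc8 deletion (orange), with the number of genes tested, ordered by the median interaction of the genes. Gluconeogenesis and the glyoxylate cycle (0.30 and 4.97) stand at the top, above the protein genes of the mitochondrial genome (−1.53 and 1.62), and seripauperins (0.13 and −1.51) at the bottom. The median of the interactions is not the difference of the 2 medians, as for the hexose transporters, whose points nearly coincide.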

How the data were processed

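Ribosomal RNA-depleted total RNA was sequenced as stranded libraries, per the labels' protocols. The authors deposited raw counts per reading frame. The submitters' processing notes name TopHat2 2.0.9, Bowtie2 2.3.4.2, CASAVA 1.8 and, as the build, sacCer3, with no role or order. No source used here names the counter, its use of strand or its rule for reads that match several places, so overlapping and antisense genes may share reads. The second column, a length, equals the codons of the reference, stop codon included, minus 10 for 5969 of 6007 reading frames and was not used as a measurement.

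The interaction and both mannose changes came from edgeR 4.0.16, run in R 4.3.3 (filterByExpr, TMM, 1 mean per group, glmQLFit), with 2 residual and 86.7 prior degrees of freedom. The plain log2 CPM difference uses library totals, which is given as an alternative. Adjusted p-values are Benjamini-Hochberg values over 6146 genes. The test was run on simulated counts as well, all drawn with the dispersion fitted to these libraries. That run holds no spread between mannose cultures, so it cannot tell whether the calls would hold in further mannose libraries. Names, coordinates and promoters came from the RefSeq reference R64. Near-identical copies were found with BLAST 2.17.0 (95% identity over 80% of the length). DESeq2 1.42.0 was an alternative.

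Genes were named by rule: the 12 largest higher and lower interactions with at least 10 CPM in a group and no near-identical copy, the 6 largest in each opposite orientation, the 2 largest per list and direction, and any member of a list of up to 10. Others are said to be chosen after their values were seen. The members and the 46 lists were chosen with earlier results of these data known. Counts of 0 allow up to 3 counts, by counting error alone.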

Additional observations from a re-analysis of the deposited data

Results flagged for a closer look

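The change from glucose to mannose differed between the genotypes, by the interaction test, for 3943 of 6146 genes. Of these, 206 rose in wild type and fell in the deletion, and 218 fell in wild type and rose in the deletion. Among the former were HXT4 (interaction −4.22), CLB1 (−2.47), CWP1 (−2.43), HXT2 (−2.41), MAL33 (−2.22) and HTA2 (−2.05). Among the latter were VAR1 (6.65), ATP6 (6.34), BI2 (5.74), DIP5 (5.17), HXT5 (4.76) and AI3 (4.15), of which VAR1, ATP6, BI2 and AI3 lie in the mitochondrial genome. Each rests on 1 mannose library per genotype, and the fall of VAR1 in wild type rests on few counts.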

How the results depend on the processing

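Neither mannose library could be left out, since each is a whole group, so the spread between mannose cultures has no estimate. With a fixed BCV of 0.2 the interaction was called for 818 genes, 554 higher and 264 lower, all 818 at least 2-fold, and mannose for 149 genes in wild type and 2496 in the deletion. Leaving out a glucose library in turn gave 3538 to 4106 calls for the interaction. For mannose in wild type it gave 1516 (without wild-type replicate 1), 1520 (without wild-type replicate 2) and up to 2734 (without deletion replicate 1), and the DESeq2 Wald test gave 1529, against 2300. With a replicate block on the glucose numbers 3760 genes were called, all among the 3943 and in the same direction. The same block gave 1949 calls for mannose in wild type, against 2300. The deviations of same-numbered glucose libraries had a correlation of −0.07 across genes. This 1 correlation cannot tell whether same-numbered libraries shared a culture day or preparation. Without GC and length trends DPM1 went from 0.10 to −0.30 and PRC1 from 0.36 to −0.047. Of 226 named genes 10 turned their sign under some alternative, and the other 8 of these were called under neither setting. At a BCV of 0.2, 83 named genes lost their call. The plain log2 CPM difference, on library totals, moved 194 of the named genes by more than their standard error and left 32 within it. Of the named genes that were called, 0 turned their sign with it. The longer promoter window and the carbon source element were added after the data were seen. The shallowest library, the deletion in mannose, limits genes of low level.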

Other observations

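Genes of lipid and membrane supply outside the lists, all chosen after their values were seen, moved in both directions. INO1, inositol phosphate synthase, had 6.15, 4.80 and 5.38 CPM in wild type and 10.7, 9.77 and 236 in the deletion, the last of each in mannose, an interaction of 4.55 ± 0.18. ELO2, ELO3 and PHS1, which lengthen fatty acids to very long chains, were lower, at −1.73 ± 0.15, −1.75 ± 0.13 and −1.61 ± 0.20. Some genes known from the building of GPI anchors were lower as well. MCD4 had 66.2, 66.2 and 55.1 CPM in wild type and 94.2, 86.7 and 17.3 in the deletion, and GAB1, GPI17 and GPI11 had interactions of −1.83, −1.68 and −1.67. ERD2, the receptor that returns proteins to the ER, and ERV29 and ERP2, of vesicle traffic between ER and Golgi, stood at −1.98, −1.97 and −2.17, and ERD2 at −1.47 without trends on GC content and length.

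Other genes outside the lists stood high in the deletion mannose library alone. CMK2, a calmodulin-dependent kinase, had 21.2, 21.7 and 30.7 CPM in wild type and 54.3, 65.3 and 799.6 in the deletion. NCE103, carbonic anhydrase, had 40.9, 41.4 and 55.5 CPM in wild type and 46.8, 49.2 and 486 in the deletion. HEF3, a translation elongation factor paralog, had an interaction of 3.58 ± 0.18, SNZ1, of vitamin B6 synthesis, 3.35 ± 0.17, and SUL1, a sulfate permease, 3.43 ± 0.48. The cause of these differences was not tested.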
